A study of Homo sapiens with 16 samples.

Results

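This account covers 9 genes of vascular endothelial growth factor (VEGF) signalling, chosen by name as a family: the ligands VEGFA, VEGFB, VEGFC and PGF, the receptor kinases KDR and FLT1, the coreceptors NRP1 and NRP2, and ENG (endoglin). They are 9 of the 58735 genes in the deposited table. The choice was made with earlier results of these libraries known. ENG had been singled out there by its lower level with formoterol against control. Its change there, and every comparison that reuses the formoterol or the control libraries, is given as a description with no test. Which values drew attention to the other 8 genes is not recorded, so their p-values are no independent support.

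The cells were HepaRG, a human liver line that differentiates into hepatocyte-like and cholangiocyte-like cells. All groups were differentiated and kept in 2% DMSO, in a medium with serum, insulin and the glucocorticoid triamcinolone acetonide, and were treated for 3 days. The control received a 1% BSA vehicle, the formoterol group 30 nM formoterol (an agonist of the beta-adrenergic receptors), the fatty acid group 0.25 mM palmitic with 0.5 mM oleic acid, and the combination both; the labels name BSA for the control only. Each group had 4 libraries, called independent replicates but not said to be separate cultures; the p-values below reflect how far these libraries scatter, which may be technical. The labels name no endothelial or other added cell type in the cultures.

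VEGF ligands are secreted dimers that bind receptor tyrosine kinases, mainly on endothelial cells, and drive vessel growth and permeability. KDR carries most of the growth signal of VEGFA, while FLT1 binds VEGFA, VEGFB and PGF tightly with a weaker kinase and also exists as a soluble decoy. VEGFC acts chiefly on lymphatic vessels, neuropilins hold ligands for the receptors and also bind semaphorins, and endoglin is a coreceptor for BMP9 and other ligands of the TGF-beta family. In liver, hepatocytes are a source of VEGFA, and the sinusoidal endothelium carries the receptors.

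Promoter sequence is shown for KDR and ENG, the tested members whose group means differed most (3.66-fold and 3.13-fold from lowest to highest). It is also shown for FLT1, the other receptor kinase among the 9 genes, which was barely counted. The stretches are the parts of RefSeq's windows (GRCh38.p14) that lie before both the RefSeq start and the outermost GENCODE start, 5′ to 3′ on the gene's minus strand. They are KDR chr4:55125596-55125845, ENG chr9:127854757-127854908 and FLT1 chr13:28495146-28495378. Capitals mark matches, on either strand, to ACGTG (the core of hypoxia-inducible factor sites), TGACG (the core of CREB and ATF sites), AGGTCA (the core of nuclear receptor sites) or GGGCGG (a GC box).
KDR: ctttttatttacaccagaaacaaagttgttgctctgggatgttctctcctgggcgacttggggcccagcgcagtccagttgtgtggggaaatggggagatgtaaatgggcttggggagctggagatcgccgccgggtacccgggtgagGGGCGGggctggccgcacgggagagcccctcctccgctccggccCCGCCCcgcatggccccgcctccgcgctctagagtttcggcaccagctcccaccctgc
ENG: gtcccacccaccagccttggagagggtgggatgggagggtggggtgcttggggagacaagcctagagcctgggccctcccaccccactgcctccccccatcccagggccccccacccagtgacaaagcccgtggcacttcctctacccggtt
FLT1: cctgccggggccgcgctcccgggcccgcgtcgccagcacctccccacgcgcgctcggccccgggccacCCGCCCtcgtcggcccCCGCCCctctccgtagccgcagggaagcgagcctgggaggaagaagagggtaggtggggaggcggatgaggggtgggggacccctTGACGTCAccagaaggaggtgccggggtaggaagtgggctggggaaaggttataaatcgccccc
The KDR window of 300 bases, 250 before the start and 50 after it, held 2 GC boxes, at 102 and 58 bases before the start, and no other match. The ENG window held none of the 4 motifs. FLT1 held 3 GC boxes, the nearest of them running past the end of the stretch shown, and TGACGTCA, the full CREB palindrome, which counts as 2 overlapping TGACG matches, 81 and 78 bases before the start. Of 35116 windows of that length 45.0% held a GC box, 24.6% TGACG, 21.4% ACGTG, 13.8% AGGTCA and 1.85% the palindrome. Windows were found for 7 of the 9 genes, not for VEGFA or NRP1. The VEGFC window held 1 TGACG match, 8 bases before the start, beside 2 GC boxes. Of the 2 PGF windows 1 held 2 TGACG matches, 148 and 141 bases before its start. A match describes letters only, and none says nothing about a factor.

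Total counts ran from 32471299 to 65673126 per library, formoterol replicate 4 being the deepest and combination replicate 3 next with 41682806. Levels are CPM, counts scaled to 1e6 per library, on library sizes scaled by TMM factors, given as mean ± SD over 4 libraries. Combination replicate 2 stood apart: its 15 hepatocyte markers summed to 28013 CPM, against 61056 to 67872 in the other 3, and its 8 proliferation markers to 764 CPM, against 485 to 522. The changes and list counts below that use the combination are also given without it, while group means of other genes and the search for like patterns include it. All groups share 1 estimate of the spread, so leaving it out also moved calls in comparisons that do not use it. Hepatocyte markers summed to 29860 to 43759 CPM in control, 68244 to 73460 with formoterol and 57529 to 65244 with fatty acids. Of 10 cholangiocyte markers EPCAM was at 0, while KRT19 averaged 58.7 CPM in control and 168 CPM with fatty acids, SOX9 47.9 and 29.2 CPM and KRT7 0.323 and 0.224 CPM. Of the 6 cholangiocyte markers tested, 3 rose and 1 fell with fatty acids. Of 14 endothelial markers 13 averaged under 1 CPM, and CDH5, ERG, CLEC4G and CLEC4M had no count in any library. Scaling by total counts alone moved the median change over all genes to −0.135 for formoterol against control, 0.143 for fatty acids added to formoterol and 0.168 for the interaction. The split of all genes higher and lower then went from 1043 and 829 to 485 and 1918, from 1717 and 1625 to 2965 and 696, and from 384 and 613 to 1030 and 351.

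Per deposited gene length, the coreceptor NRP1 and the receptor KDR led the family in control cells, above their ligands. NRP1 lay at 25.7 to 27.8 CPM per kb of deposited gene length, KDR at 17.6 to 19.9, VEGFA at 2.68 to 2.93 and VEGFB at 2.29 to 2.41. ENG (0.642 to 1.25 CPM per kb) and VEGFC (0.623 to 1.24) overlapped, so their order cannot be set. NRP2 followed at 0.0444 to 0.0501, above FLT1 at 0 to 0.0178, and PGF had no count in control. No other neighbours overlapped except FLT1 and PGF. With formoterol KDR fell to 5.74 to 7.47 CPM per kb, against 2.86 to 3.27 for VEGFA. The deposited length merges the exons of every annotated transcript, 14431 bases for VEGFA with 32 transcripts and 1545 bases for VEGFB with 4. The level of a gene whose cells use a short transcript is thus understated. Without division by length, KDR averaged 44.2 CPM and VEGFA 44.4 CPM with formoterol. Their order there rests on the lengths, 6563 bases for KDR, and could reverse if the cells use short VEGFA transcripts.

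**Figure D1:**
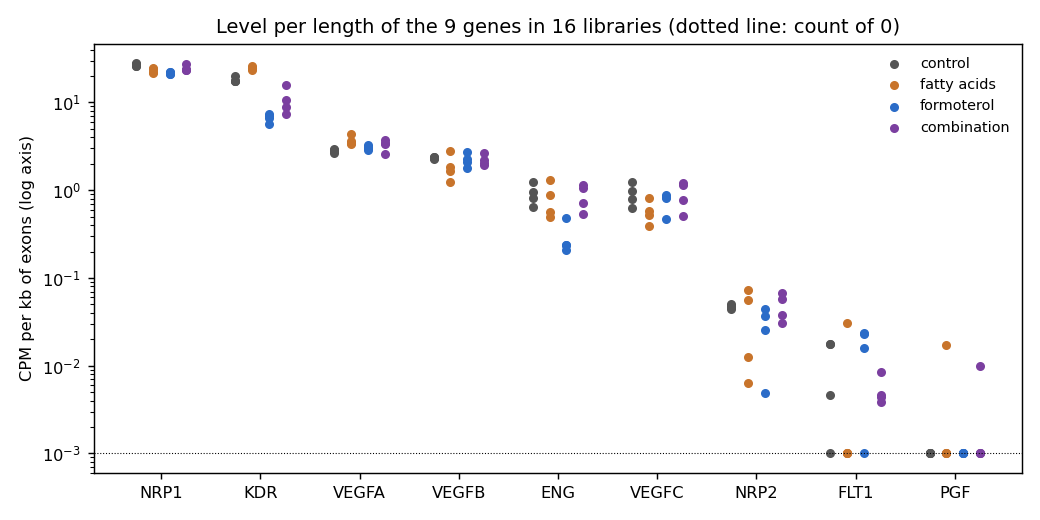
Level per length of the 9 genes in all 16 libraries, as CPM per kb of merged exons on a log axis, 1 point per library coloured by group, with counts of 0 drawn on the dotted line. NRP1 and KDR are the highest in control, at 25.7 to 27.8 and 17.6 to 19.9 CPM per kb, and the control libraries of ENG and VEGFC overlap.

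Of the 9 genes 7 passed the filter on low counts and were tested, FLT1 and PGF not. Tests are edgeR's quasi-likelihood test with Benjamini-Hochberg adjustment over all 18121 genes, called at an adjusted p under 0.05. Changes are log2 fold changes ± SE. Leaving ENG aside, fatty acids against control raised 2 of 6 (KDR and VEGFA) and lowered 1 (NRP1), where 8.93% of all genes rose and 7.62% fell. Formoterol against control lowered 2 of the 6, KDR and NRP1, and raised 0, against 4.57% lower and 5.76% higher over all genes. The combination against control lowered KDR alone (6.68% lower and 7.58% higher over all genes). Formoterol added to fatty acids likewise lowered KDR alone (1.12% lower, 1.68% higher). Fatty acids added to formoterol raised KDR and NRP1 (9.48% higher, 8.97% lower). The interaction, which asks whether formoterol acted differently with fatty acids present, was called for NRP1 (2.12% higher, 3.38% lower). The comparisons share libraries, so their counts are not independent of each other.

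**Figure D2:**
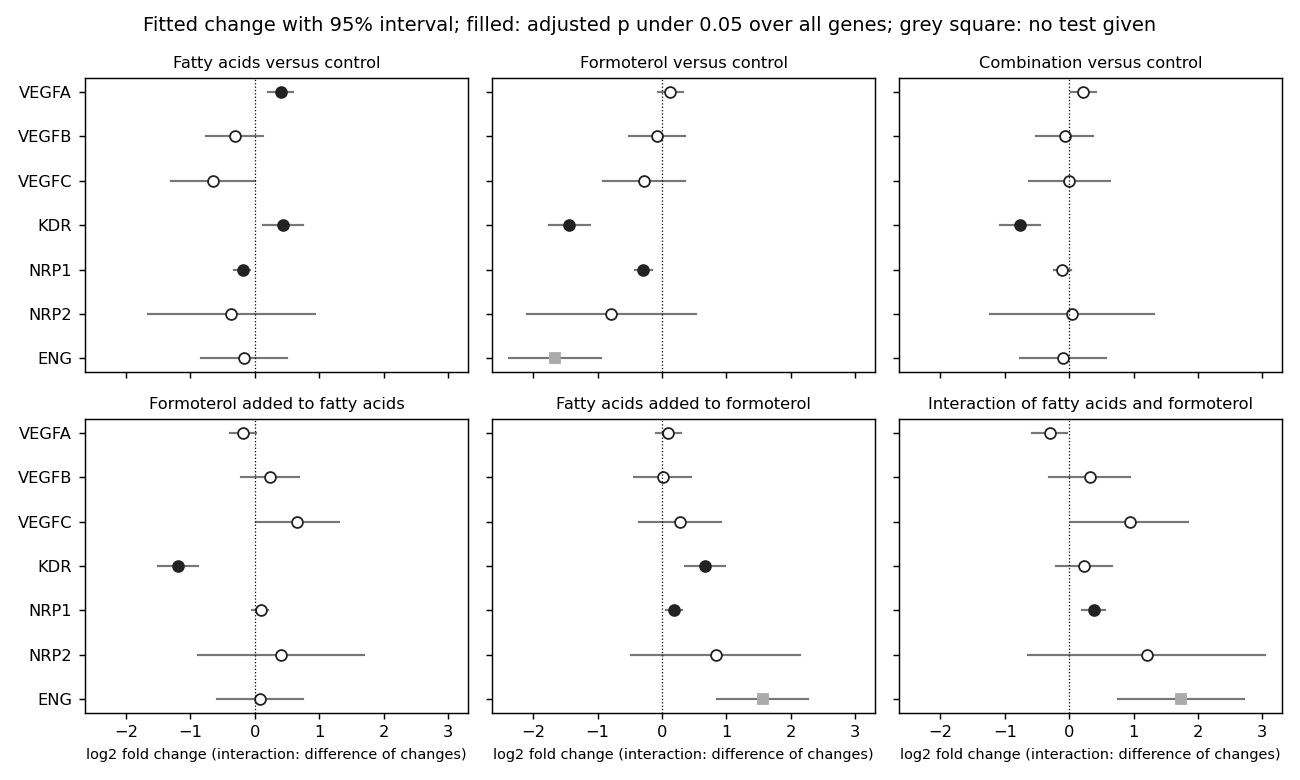
Fitted log2 fold change of the 7 tested genes in the 6 comparisons, with 95% intervals, filled where the adjusted p over all genes was under 0.05. Grey squares mark ENG values given with no test. The open ENG circles for fatty acids and for the combination against control are description too. KDR lies left of 0 wherever formoterol was added, at −1.44 without fatty acids and −1.20 with them.

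KDR (ENSG00000128052, GRCh38 chromosome 4, 55078259 to 55125595, minus strand), the main signalling receptor for VEGFA, was lower wherever formoterol was present. Its libraries held 116, 116, 130 and 115 CPM in control, 49.0, 46.5, 43.5 and 37.7 with formoterol, 155, 162, 169 and 161 with fatty acids, and 69.5, 105, 58.1 and 48.3 in the combination. All formoterol libraries lay below all control libraries, all fatty acid libraries above them, and the combination below control but overlapping with formoterol. Formoterol lowered KDR from 119 ± 7.36 to 44.2 ± 4.87 CPM (SD, n = 4), 2.71-fold, a change of −1.44 ± 0.15 (edgeR adjusted p = 3.71e-06). On top of fatty acids, formoterol lowered it from 162 ± 5.86 CPM to a mean of 70.2 ± 24.7, or −1.20 ± 0.15 (edgeR adjusted p = 3.19e-05). The interaction was 0.23 ± 0.21 (95% interval −0.20 to 0.67, edgeR adjusted p = 0.596).

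Fatty acids moved KDR the other way. Against control the rise was 1.35-fold, 0.44 ± 0.15 (edgeR adjusted p = 0.0441), and on top of formoterol 0.67 ± 0.15 (edgeR adjusted p = 0.00326). Combination replicate 2 held 105 CPM, and without it the combination mean was 58.6 ± 10.6 CPM (n = 3). The change then was −1.03 ± 0.09 for the combination against control (from −0.77 ± 0.15), −1.46 ± 0.10 for formoterol added to fatty acids and 0.41 ± 0.09 for fatty acids added to formoterol. It was −0.03 ± 0.13 for the interaction. The call for fatty acids against control is close to the threshold: leaving out any 1 library other than formoterol 4 or combination 2, 3 or 4 lost it, with adjusted p = 0.0508 to 0.104. By edgeR the adjusted p was 0.00036 without combination replicate 2, 2.47e-05 with only the groups compared and 4.53e-07 with no filter on low counts. It was 0.112 with total counts only, and 0.0966 by DESeq2.

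In bulk RNA, fewer cells of a type and less RNA per cell cannot be told apart, so markers of other cell types are given beside KDR. The endothelial sum was 2.43 to 4.01 CPM in control, 1.31 to 2.77 with formoterol, 3.31 to 5.9 with fatty acids and 3.44 to 5.57 in the combination, below KDR's own level in each library. PECAM1, at a mean of 2.27 CPM, was the only endothelial marker over 1 CPM. It averaged 1.71 CPM in control, 1.25 with formoterol, 3.13 with fatty acids and 2.97 in the combination. Of the 3 endothelial markers tested, 0 were called with fatty acids or with formoterol against control. Fatty acids added to formoterol raised PECAM1 (1.25 ± 0.32, edgeR adjusted p = 0.00941), which was not checked without combination replicate 2. The 12 stellate and fibroblast markers, of which COL1A2 was at 0, summed to 644 to 808 CPM in control, 473 to 516 with formoterol and 762 to 890 with fatty acids. In the combination they summed to 610 to 641 CPM in 3 libraries and 770 in replicate 2. Most of that sum was DCN, a matrix proteoglycan, at 537, 349, 637 and 483 CPM in control, formoterol, fatty acids and combination, the same order of groups as KDR. Others of the list had another order. COL1A1, a fibrillar collagen, went from 7.67 CPM in control to 3.99 with fatty acids (−0.94 ± 0.20, edgeR adjusted p = 0.00194). PDGFRB went from 55.7 to 48.7 and TAGLN from 4.65 to 3.61. With formoterol COL1A1 averaged 7.17 CPM, PDGFRB 44.6 and TAGLN 3.47. LUM averaged 98.6 CPM in control, 79.5 with formoterol, 106 with fatty acids and 104 in the combination. Of the 9 stellate markers tested, fatty acids raised 1 and lowered 1, and formoterol raised 0 and lowered 1. Their median change was 0.22 with fatty acids and −0.31 with formoterol. The part of those cells in the KDR result was not tested.

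**Figure D3:**
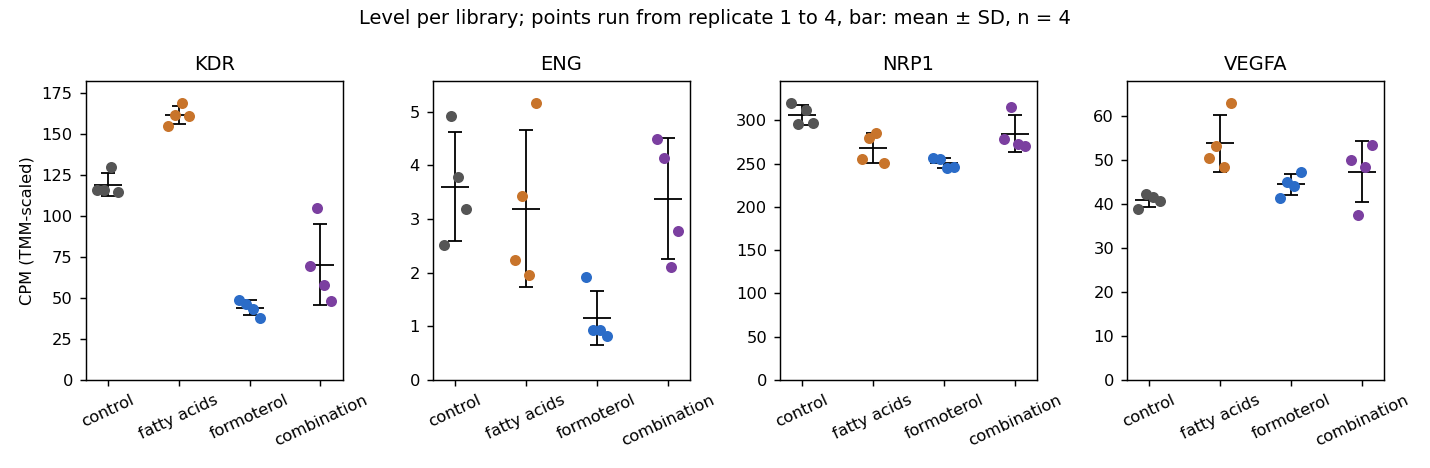
CPM of KDR, NRP1, VEGFA and ENG in each of the 16 libraries by group, points being libraries and bars the mean ± SD (n = 4). KDR separates the groups most, with combination replicate 2 at 105 CPM above the other combination libraries.

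FLT1 (ENSG00000102755, chromosome 13, 28300344 to 28495145, minus strand) was at the limit of counting. The 16 libraries held 73 counts in all, 0 to 13 in each, and 5 libraries had none. The highest was fatty acids replicate 3 with 13 counts (0.385 CPM), while the other 3 fatty acid libraries had 0. A count of 0 allows up to 0.0924 CPM, 3 counts, in the shallowest library. Gene counts do not separate the soluble form. With so few counts no difference between groups was detectable at this depth.

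NRP1 (ENSG00000099250, chromosome 10, 33177492 to 33336262, minus strand), the neuropilin that binds VEGFA and class 3 semaphorins, was the most counted of the 9. It held 320, 296, 312 and 297 CPM in control, 257, 255, 245 and 246 with formoterol, 255, 280, 286 and 251 with fatty acids, and 279, 316, 273 and 270 in the combination. Each single treatment lay below control in all 4 libraries, while the combination overlapped with control. Formoterol lowered NRP1 1.22-fold, a change of −0.29 ± 0.06 (edgeR adjusted p = 0.00416), and fatty acids 1.14-fold, a change of −0.19 ± 0.06 (edgeR adjusted p = 0.0324). The call with fatty acids was lost without control replicate 1 or 3 or fatty acids replicate 1 or 4 (adjusted p = 0.074 to 0.107), and at 0.0778 with total counts only and 0.0705 without a filter.

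On top of fatty acids no change of NRP1 with formoterol was called, at 0.09 ± 0.06 (edgeR adjusted p = 0.574), or 0.03 ± 0.06 (adjusted p = 0.872) without combination replicate 2. The test of the difference itself was called at 0.38 ± 0.09 (edgeR adjusted p = 0.0146), and in every alternative run, at 0.32 ± 0.08 (adjusted p = 0.0109) without combination replicate 2. Fatty acids added to formoterol raised it by 0.18 ± 0.06 (edgeR adjusted p = 0.0402), a call lost at 0.13 ± 0.06 (adjusted p = 0.139) without combination replicate 2. That call was also lost on leaving out any of the 4 formoterol libraries, fatty acids replicate 1 or combination replicate 1, with no filter, and with only the groups compared. NRP2 (ENSG00000118257, chromosome 2, 205681990 to 205798133, plus strand), the neuropilin that also serves VEGFC, had 3 to 34 counts per library. Its control libraries held 0.616 to 0.696 CPM and the fatty acid libraries 0.0879 to 1.01 CPM, a wide spread, and no comparison was called.

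ENG (ENSG00000106991, chromosome 9, 127815012 to 127854756, minus strand) was lower with formoterol alone and near control in the combination. It held 2.52, 4.93, 3.78 and 3.19 CPM in control, 1.91, 0.937, 0.934 and 0.825 with formoterol, 2.23, 3.43, 1.95 and 5.16 with fatty acids, and 4.49, 4.14, 2.11 and 2.78 in the combination. Every formoterol library lay below every other library. The counts behind this were 29 to 67 per formoterol library and 66 to 204 elsewhere. As a description, formoterol against control was −1.66 ± 0.34 (3.15-fold lower, 1.15 ± 0.51 against 3.61 ± 1.02 CPM), fatty acids added to formoterol 1.56 ± 0.34 and the interaction 1.73 ± 0.47. Without combination replicate 2 the last values were 1.45 ± 0.35 and 1.62 ± 0.46. Fatty acids against control, which reuses the control libraries, was −0.17 ± 0.32 (95% interval −0.84 to 0.50), also as a description. For formoterol added to fatty acids, which uses neither the control nor the formoterol group, no change was called. It was 0.08 ± 0.32 (edgeR adjusted p = 0.954), or −0.04 ± 0.33 (adjusted p = 0.983) without combination replicate 2.

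An antisense gene, AL162586.1 (chromosome 9, 127816066 to 127822520, plus strand), lies inside ENG and shares 313 of ENG's 3935 exon bases. It held 1687 counts against 1639 for ENG, 103% of them. No source used here says whether the counting used strand, so at least over the shared bases reads of the 2 genes cannot be told apart. Its group means were 3.55 CPM in control, 1.26 with formoterol, 3.02 with fatty acids and 3.81 in the combination (3.15 without replicate 2), the same pattern as ENG, with formoterol against control at −1.49 ± 0.35. Summed as 1 feature, the pair gave −1.57 ± 0.31 for formoterol against control and 1.58 ± 0.31 for fatty acids added to formoterol, the latter 1.38 ± 0.29 without combination replicate 2. The endothelial, stellate and hepatocyte sums given above also differed between these groups, and their part in the ENG values was not tested.

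**Figure D4:**
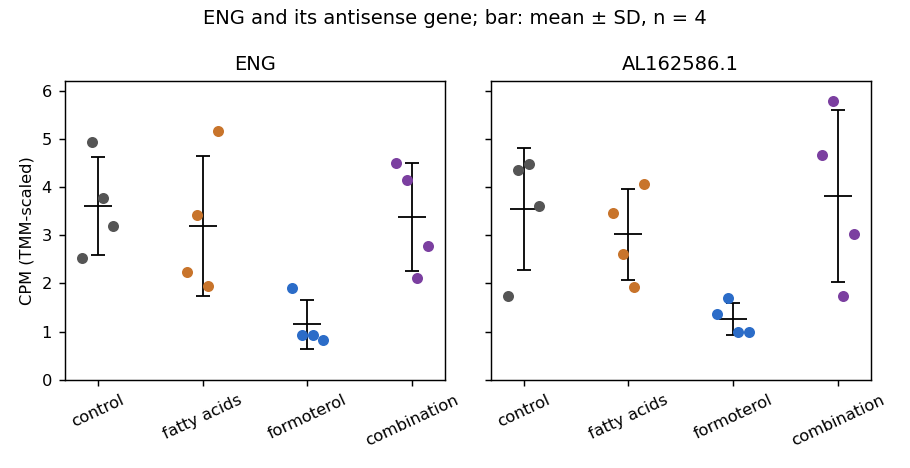
CPM of ENG and of its antisense gene in each library by group, bars being the mean ± SD (n = 4). Both genes are lowest in the formoterol libraries, with ENG at 0.825 to 1.91 CPM.

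VEGFA (ENSG00000112715, chromosome 6, 43770184 to 43786487, plus strand), the main ligand of KDR, rose with fatty acids. It held 38.7, 42.2, 41.5 and 40.7 CPM in control, 50.4, 53.0, 48.4 and 62.8 with fatty acids, 41.2, 45.0, 44.1 and 47.1 with formoterol, and 50.0, 37.4, 48.4 and 53.3 in the combination. All fatty acid libraries lay above all control libraries, and fatty acids replicate 4 was the highest. The mean went from 40.8 ± 1.52 to 53.7 ± 6.41 CPM, 1.32-fold or 0.40 ± 0.09 (edgeR adjusted p = 0.0055), and this call held in all 25 alternatives. Formoterol against control was 0.12 ± 0.09 (95% interval −0.07 to 0.32, edgeR adjusted p = 0.476), and −0.01 ± 0.08 with total counts only. The combination against control was 0.21 ± 0.09 (edgeR adjusted p = 0.152). Without combination replicate 2, the lowest combination library, it was called at 0.31 ± 0.08 (adjusted p = 0.0087). Fatty acids added to formoterol gave 0.09 ± 0.09 (edgeR adjusted p = 0.556), or 0.19 ± 0.08 (adjusted p = 0.13) without that library. The interaction was −0.30 ± 0.13 (95% interval −0.58 to −0.03, edgeR adjusted p = 0.2), or −0.21 ± 0.11 (adjusted p = 0.342) without it. Neither was called. Gene counts do not separate the splice forms of VEGFA, which differ in how tightly they bind matrix.

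VEGFB (ENSG00000173511, chromosome 11, 64234538 to 64238793, plus strand), a FLT1 ligand, and VEGFC (ENSG00000150630, chromosome 4, 176683538 to 176792727, minus strand) showed no called change. VEGFB means were 3.62, 3.43, 2.91 and 3.44 CPM in control, formoterol, fatty acids and combination, and its fatty acid libraries ranged from 1.9 to 4.3 CPM. VEGFC libraries held 1.51 to 3 CPM in control and 0.947 to 2 with fatty acids, which overlap. VEGFC changed by −0.65 ± 0.31 with fatty acids (95% interval −1.30 to 0.00, edgeR adjusted p = 0.173) and by 0.65 ± 0.31 when formoterol was added to them (adjusted p = 0.343), or 0.72 ± 0.33 (adjusted p = 0.307) without combination replicate 2. PGF (ENSG00000119630, chromosome 14, 74941834 to 74955784, minus strand), the placental ligand of FLT1, had 4 counts in fatty acids replicate 4, 2 in combination replicate 1 and 0 in the other 14 libraries.

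**Figure D5:**
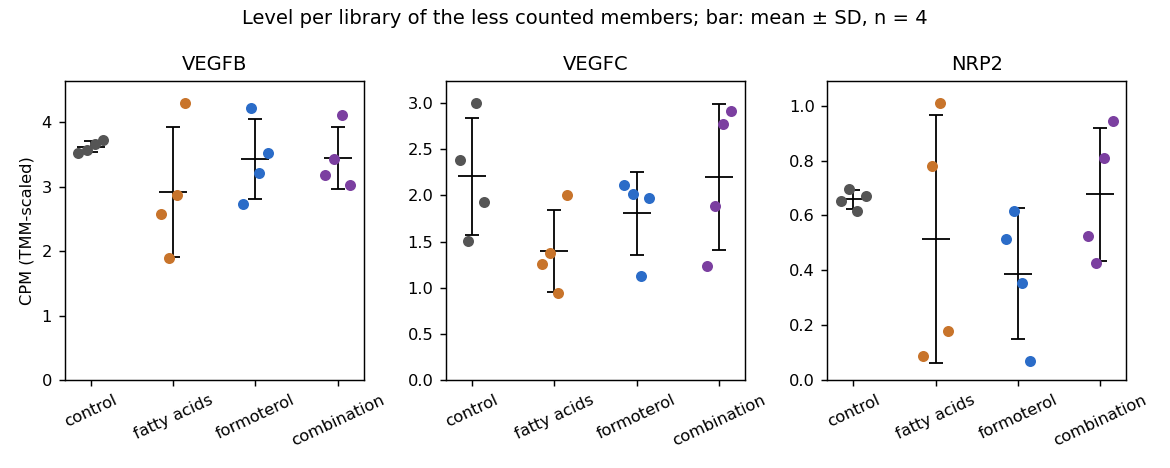
CPM of VEGFB, VEGFC and NRP2 in each library by group, bars being the mean ± SD (n = 4). The libraries of the groups overlap for VEGFB and VEGFC, and the fatty acid libraries of NRP2 spread from 0.0879 to 1.01 CPM.

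For each gene with a call, and for ENG, the 2 protein-coding genes nearest in pattern were found among 12276 genes, by the root-mean-square difference of centred log2 CPM over 16 libraries. This is a description and carries no statement on control. The nearest to KDR were CTGF (0.293 log2 units, against 0.759 for KDR's own spread) and CDC42EP3 (0.329). CTGF, a secreted matricellular protein, averaged 59, 34.1, 84.5 and 46 CPM in control, formoterol, fatty acids and combination. Those of VEGFA were the clock repressor CRY1 (0.0974, own spread 0.19) and KLC4 (0.106), and those of NRP1 the glucocorticoid-responsive FKBP5 (0.0699, own spread 0.126) and RBFOX2 (0.0766). ENG lay nearest to ACCS (0.4, own spread 0.803) and LPIN3 (0.408), which averaged 33.3 CPM in control and 16.4 with formoterol.

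Genes of 5 related lists place the family among its pathways, each list described by counts of called genes with no test of the list. Their counts are read beside the shares of all genes: 8.93% rose and 7.62% fell with fatty acids, 5.76% and 4.57% with formoterol, 1.68% and 1.12% with formoterol added to fatty acids, and 9.48% and 8.97% with fatty acids added to formoterol. The list genes named below kept their calls without combination replicate 2. The first list held other VEGF ligands and receptors and genes of VEGF receptor signalling. Of its 29 tested genes fatty acids raised 4 and lowered 2, and formoterol raised 1 and lowered 1. Formoterol added to fatty acids raised 1 and lowered 1. The medians were 0.01, 0.00 and 0.00 beside all-gene medians of 0.01, 0.00 and 0.00. Without combination replicate 2 these counts were 5 and 2, 1 and 4, and 1 and 1. The kinase MAP2K1 fell with fatty acids (−0.51 ± 0.07, edgeR adjusted p = 2.52e-05) and the small GTPase NRAS rose with each treatment (0.31 ± 0.06 and 0.34 ± 0.06). The ligand VEGFD fell with fatty acids from a mean of 1.54 to 0.614 CPM (−1.31 ± 0.38, edgeR adjusted p = 0.019). The chaperone HSPB1 rose with fatty acids (0.41 ± 0.09) and fell with formoterol (−0.37 ± 0.09), while PIK3R1, the regulatory subunit of PI3 kinase, fell (−0.38 ± 0.07, or −0.35 ± 0.07 without combination replicate 2) and MAPKAPK2 rose (0.26 ± 0.06, or 0.28 ± 0.06) when formoterol was added to fatty acids.

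Of 10 tested neuropilin partners, semaphorins and plexins, fatty acids raised 2 and lowered 0 (8.93% and 7.62% over all genes), and formoterol raised 0 and lowered 3 (5.76% and 4.57%). The plexins PLXNA3 (0.49 ± 0.10) and PLXNA1 (0.43 ± 0.10) rose with fatty acids. PLXNA2 (−0.39 ± 0.09), SEMA3C (−0.36 ± 0.10) and SEMA3D (−0.23 ± 0.07) fell with formoterol, and 0 genes were called for formoterol added to fatty acids. Fatty acids added to formoterol raised 4 and lowered 0 (9.48% and 8.97%). The list's medians with fatty acids, with formoterol and with formoterol added to fatty acids were 0.09, −0.15 and −0.02. Without combination replicate 2, with 11 genes tested, fatty acids raised 3 and lowered 0, formoterol raised 0 and lowered 4, formoterol added to fatty acids raised 0 and lowered 1, and fatty acids added to formoterol raised 3 and lowered 0. Of 20 tested endoglin partners and genes of BMP and TGF-beta signalling, fatty acids raised 1 and lowered 6 (7.62% of all genes fell), formoterol raised 0 and lowered 5 (4.57%), and formoterol added to fatty acids raised 0 and lowered 2 (1.12%), the same counts as without combination replicate 2. The medians of these genes were 0.03, −0.07 and −0.13, the last −0.12 without combination replicate 2. ID3 (−0.77 ± 0.08), ID1 (−0.49 ± 0.08) and SMAD6 (−0.58 ± 0.09), targets of BMP signalling, fell with fatty acids. With formoterol SMAD7 (−0.47 ± 0.06), TGFBR3 (−0.45 ± 0.07) and SMAD6 (−0.51 ± 0.09) fell, and TGFBR2 (−0.23 ± 0.05) and TGFBR3 (−0.31 ± 0.07) fell when it was added to fatty acids, by −0.25 ± 0.05 and −0.36 ± 0.07 without combination replicate 2.

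Of 22 tested hypoxia-inducible factors and targets, a set to which VEGFA belongs, fatty acids raised 5 and lowered 1, formoterol raised 3 and lowered 3, and formoterol added to fatty acids raised 2 and lowered 2, beside 8.93% and 7.62%, 5.76% and 4.57%, and 1.68% and 1.12% of all genes. Without combination replicate 2 the counts were 6 and 1, 4 and 3, and 2 and 1. The medians over all libraries were −0.07, 0.01 and 0.00. With fatty acids NDRG1 (0.49 ± 0.08) rose as VEGFA did, and the glucose transporter SLC2A1 fell (−1.07 ± 0.07, edgeR adjusted p = 1.12e-09). With formoterol SLC2A1 (−0.35 ± 0.07) fell and BNIP3 rose (0.35 ± 0.08), and on top of fatty acids NDRG1 fell (−0.44 ± 0.08) while DDIT4 (0.40 ± 0.08) and EPAS1 (0.20 ± 0.05) rose. Those 3 changes were −0.35 ± 0.06, 0.47 ± 0.07 and 0.22 ± 0.05 without combination replicate 2. Of 15 tested other angiogenic factors fatty acids raised 4 and lowered 2, formoterol raised 3 and lowered 0, and formoterol added to fatty acids changed 0, beside the same shares of all genes. Without combination replicate 2 the counts were 5 and 2, 4 and 0, and 1 and 2. The medians over all libraries were 0.37, 0.10 and −0.02. EPHB4, an ephrin receptor, rose with fatty acids (0.58 ± 0.07) and formoterol (0.29 ± 0.07), and THBS1 (0.83 ± 0.13) and PDGFC (0.37 ± 0.08) with fatty acids. EGFL7 (0.88 ± 0.18) and TYMP (0.44 ± 0.14) rose with formoterol. With fatty acids EGFL7 rose too (0.83 ± 0.18, edgeR adjusted p = 0.00309), while TYMP fell (−0.53 ± 0.14, edgeR adjusted p = 0.0107).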

How the data were processed

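Poly-A RNA of 16 HepaRG libraries (4 groups of 4) was sequenced after random-hexamer priming and size selection, per the labels' protocols. The authors deposited gene counts. The submitters' processing notes list DESeq2, HISAT2 2.0.5 and mm39, a mouse build. Every one of the 58735 IDs in the table is a human gene and carries the coordinates of GENCODE release 29 (GRCh38), and the counts were taken as human. The program that counted, and whether it used strand, is not given in the sources used. No count column was left unmapped (0) and 0 rows lacked a gene ID.

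Genes were kept by edgeR's filterByExpr (18121 genes, 99.94% of counts) and scaled with TMM factors. The fit was edgeR 4.0.16 quasi-likelihood on 4 group means over all 16 libraries (12 residual and 8.93 prior degrees of freedom), with Benjamini-Hochberg adjustment over all genes at 0.05. An SE is the change divided by the square root of the F statistic. Depth was 32471299 to 65673126 counts, and a count of 0 allows 3 counts, for counting error only. The fit was tested on simulated data. The members, lists and motifs were chosen with earlier results of these data known. Named list genes are up to 3 called genes with the smallest p in 3 of the comparisons; some are not reported here. Alternatives were DESeq2 size factors, total counts only, no filter, at least 1 CPM in 4 libraries, DESeq2 1.42.0, a block for the replicate number, leaving out each library in turn, only the groups compared, and overlapping genes summed. Added after seeing the data were the summed genes, and the lists, without combination replicate 2. Promoter windows come from RefSeq. R was 4.3.3, Python 3.11.15, pandas 2.3.3, numpy 2.4.6 and matplotlib 3.10.9.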

Additional observations from a re-analysis of the deposited data

Results flagged for a closer look

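Among 34 groups of 4 libraries with varying levels, 7 held a library far from the other 3. Chance gives about 1 in 20 for smoothly spread values, a rate that does not hold for very low counts. A group with 3 libraries at 0 is always flagged, as for both PGF entries and FLT1 in fatty acids replicate 3 below, so 7 of 34 is no measure of excess. Control replicate 3 held 130 CPM of KDR against 115 to 116 CPM, formoterol replicate 3 held 1.13 CPM of VEGFC against 1.97 to 2.11, and formoterol replicate 1 held 1.91 CPM of ENG against 0.825 to 0.937. The other 4 rest on 2 to 13 counts: FLT1 in fatty acids replicate 3 (0.385 CPM) and combination replicate 2 (0.107 CPM), and PGF in fatty acids replicate 4 (0.101 CPM) and combination replicate 1 (0.0584 CPM). The effect of formoterol differed with and without fatty acids for NRP1, by 0.38 on the log2 scale by edgeR's interaction term.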

How the results depend on the processing

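Over 25 alternatives, 1 of them chosen after seeing the data, 963 member values were compared with the main fit. Of these 928 kept their side of the threshold, and either kept their direction or, uncalled, changed sign by less than their SE. Among the others 30 lost a call, 2 gained one, 3 uncalled values changed sign by more than their SE and 0 calls reversed. The 963 include ENG in fatty acids and in combination against control, which are description only. Of 74 ENG values in comparisons that use the formoterol group, 2 moved by more than their SE, both without formoterol replicate 1. They became −2.01 for formoterol against control and 1.91 for fatty acids added to formoterol. Members other than ENG are counted here. With fatty acids against control 3 were called, 1 with total counts only, and 1 to 3 with each library left out. Fatty acids added to formoterol called 2, but 1 with no filter and 1 with only the groups compared, and 1 to 2 with a library left out. The combination against control called 1, and 1 to 2 with a library left out; with overlapping genes summed and without combination replicate 2 it called 2, and fatty acids added to formoterol then called 1. With a library left out, formoterol against control called 2, formoterol added to fatty acids 1 and the interaction 1, as with all libraries. The cause was not tested.

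Counts over all genes moved by over 1.5 times in some settings. Formoterol added to fatty acids called 507 genes, 880 with no filter, 795 by DESeq2, 275 with only the groups compared and 302 without fatty acids replicate 3. The interaction called 997, and 1523 with no filter, 444 without control replicate 3, 640 without control replicate 4, 585 without formoterol replicate 4, 604 without fatty acids replicate 1 and 653 without fatty acids replicate 3. Formoterol against control called 1872, 1002 without control replicate 3 and 1118 without formoterol replicate 4.

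The replicate numbers showed no pairing of the libraries. Over 24 same-numbered pairs the correlation of deviations ran from −0.113 to 0.0825, and over the 72 other pairs from −0.101 to 0.138. Of 16 libraries 1 correlated best with its own number in every other group at once, a strict count. With the replicate block, the 6 comparisons called 3108, 1967, 2583, 537, 3447 and 1089 genes, against 2998, 1872, 2583, 507, 3342 and 997, and no member's call changed. Depth limits FLT1, PGF and NRP2, with at most 13, 4 and 34 counts in a library.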
